A study of Homo sapiens with 6 samples.

Results

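Axon guidance ligands and receptors were followed in SUM159, a human cell line from a triple-negative breast tumour, in libraries labelled DAPK3 knockout (KO) and libraries labelled control. DAPK3 encodes a death-associated protein kinase that phosphorylates serine and threonine. The genes were chosen by symbol from 5 signalling systems, the semaphorins with their plexin and neuropilin receptors, the ephrins with the EPH receptors, the SLIT ligands with the ROBO receptors, the netrins, and the UNC5 netrin receptors, which gave 68 of the 60675 genes in the table. There were 3 libraries from cells of 1 knockout line, numbered 3, and 3 from cells with the DAPK3 WT genotype. All were polyA RNA from cells grown with serum, HEPES, insulin and hydrocortisone, with no other agent or allele given in the labels. Nothing says that the libraries of a label are separate cultures, so a p-value here reflects only how far these libraries scatter, which may be technical. With 1 knockout line, the knockout and the particular line cannot be told apart.

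Guidance cues were first known for steering growing axons, and the same ligands and receptors act outside the nervous system on cell shape, adhesion, migration and blood vessel growth. Class 3 semaphorins are secreted and mostly signal through neuropilins paired with plexins, while the other vertebrate classes are tethered to the membrane and bind plexins directly. EPH receptors form the largest family of receptor tyrosine kinases, and their ephrin ligands sit on neighbouring cells, the A type on a lipid anchor and the B type with a transmembrane tail, so that contact can signal in both directions. In epithelial tissues, breast included, EPH and ephrin contacts take part in cell sorting and boundary formation.

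The DAPK3 transcript did not follow the labels in KO R2 and control R2. It stood at 13.1, 26.95 and 11.3 CPM (counts scaled to library size) in the libraries labelled KO R1 to R3 and at 26.1, 10.6 and 25.9 CPM in control R1 to R3. The 3 libraries with the highest DAPK3 RNA were therefore KO R2, control R1 and control R3. No library was moved between groups, and results are given with all 6 libraries and without both R2 libraries, which leaves 2 of each label. The library totals ran from 16312184 to 22970823 expected counts. On the first principal component, with 74.6% of the variance, KO R2 (-52.8), control R1 (-59.4) and control R3 (-56.8) lay on one side and KO R1 (56.4), KO R3 (56.5) and control R2 (56.1) on the other. Mitochondrial transcripts took 4.52% to 5.89% of the counts in libraries labelled KO and 4.66% to 7.35% in those labelled control.

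The largest fall among the guidance genes without both R2 libraries was that of NRP2, a neuropilin that binds class 3 semaphorins and VEGF-C, and the largest rise that of EPHB2, a receptor for B-type ephrins. Their promoters are shown because these receptors moved farthest in opposite directions. The sequences, credited to RefSeq on GRCh38.p14, are the 250 bases before the start annotated there, 5′ to 3′ on the strand of the gene. Capitals mark the letters of a searched motif. Of the windows of each gene, the one with the lowest coordinate is shown. The NRP2 window lies inside the gene by GENCODE release 29, where NRP2 starts at 205681990. The EPHB2 window lies before the start of EPHB2 there, at 22710839.
NRP2 (chr2:205682251-205682500, plus strand): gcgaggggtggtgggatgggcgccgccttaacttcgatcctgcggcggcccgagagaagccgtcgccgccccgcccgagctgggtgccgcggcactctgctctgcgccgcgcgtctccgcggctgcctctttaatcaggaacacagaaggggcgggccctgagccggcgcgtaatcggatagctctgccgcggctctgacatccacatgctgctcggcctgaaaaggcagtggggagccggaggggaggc
EPHB2 (chr1:22710588-22710837, plus strand): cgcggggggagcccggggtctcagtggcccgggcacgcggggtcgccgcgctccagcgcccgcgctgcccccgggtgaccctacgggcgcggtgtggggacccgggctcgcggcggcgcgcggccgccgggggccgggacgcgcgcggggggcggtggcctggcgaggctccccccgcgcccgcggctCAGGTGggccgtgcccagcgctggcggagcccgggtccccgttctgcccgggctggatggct
The NRP2 window holds 29 CpG dinucleotides at 70.0% G and C and the EPHB2 window 42 at 84.8%, where the median G and C content of all promoter windows was 58.0%. Motifs were searched on both strands, each independently of the others: TGANTCA of AP-1, CATTCC of TEAD factors, CAGGTG bound by ZEB and SNAI repressors, and TATAAA. The single match in the windows shown was CAGGTG in EPHB2. RefSeq windows were matched for 58 of the 68 genes, among them 10 of the 12 called lower and all 7 called higher without both R2 libraries, as described below. A gene is counted once if any of its windows holds the letters. CATTCC was found in 0 of those 10 and 3 of those 7, in 6 of the 58, and in 14.3% of all genes with a window (11.9% of all windows). CAGGTG was found in 2 of the 10 and 2 of the 7, in 13 of the 58, and in 20.6% of all genes (17.5% of windows). TGANTCA was found in 0 of the 10, 0 of the 7 and 1 of the 58 (8.06% of all genes and 6.57% of windows). TATAAA was found in 1 of the 10, 0 of the 7 and 3 of the 58 (13% of all genes and 10.7% of windows). A match is a run of letters and not a binding site, and a window without one says nothing of the factor.

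Most of the guidance RNA in these cells came from a few receptors and ligands. Of the 68 genes, 37 had at least 1 CPM in every library, 21 stayed under 1 CPM in every library, and 10 crossed that level between libraries. The summed level of all 68 ranged from 2056 to 2258 CPM in libraries labelled KO and from 1973 to 2173 CPM in those labelled control. Levels of different genes are compared per kilobase of exon, on the union of exons in GENCODE release 29. On that scale 31 genes averaged at least 1 CPM per kb over the 6 libraries, and the top 5 (EPHA2, UNC5B, NRP1, NTN4 and PLXNB2) made up 56.7% of the summed level.

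EPHA2 led, at 73.8 ± 25.9 CPM per kb (SD over 6 libraries), followed by UNC5B, a netrin receptor known as a dependence receptor, at 33.4 ± 10.7 CPM per kb. NRP1 at 23.9 ± 9.38, the basement membrane netrin NTN4 at 22.97 ± 8.89 and PLXNB2 at 22.7 ± 1.99 CPM per kb came next and did not differ beyond their spread. The place of NRP1 depends on the length used. Its exon union is 11522 bases and its longest transcript 5882, while UNC5B has 6841 by both. Per length of the longest transcript NRP1 stood above UNC5B, NTN4 and PLXNB2. PLXNA1 (14.8 ± 3.37), EPHB4 (13.8 ± 2.77) and PLXNB1 (12.8 ± 5.20 CPM per kb) also lay within their spread of each other. By this mean EFNB2, at 8.42 ± 2.77 CPM per kb, was the highest ephrin, SEMA3C, at 7.48 ± 2.09, the highest semaphorin, ROBO1, at 7.13 ± 0.722, the highest ROBO, and SLIT2, at 5.34 ± 1.05, the highest SLIT. The first places of EFNB2 and SEMA3C did not hold in every library, as described below.

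**Figure D1:**
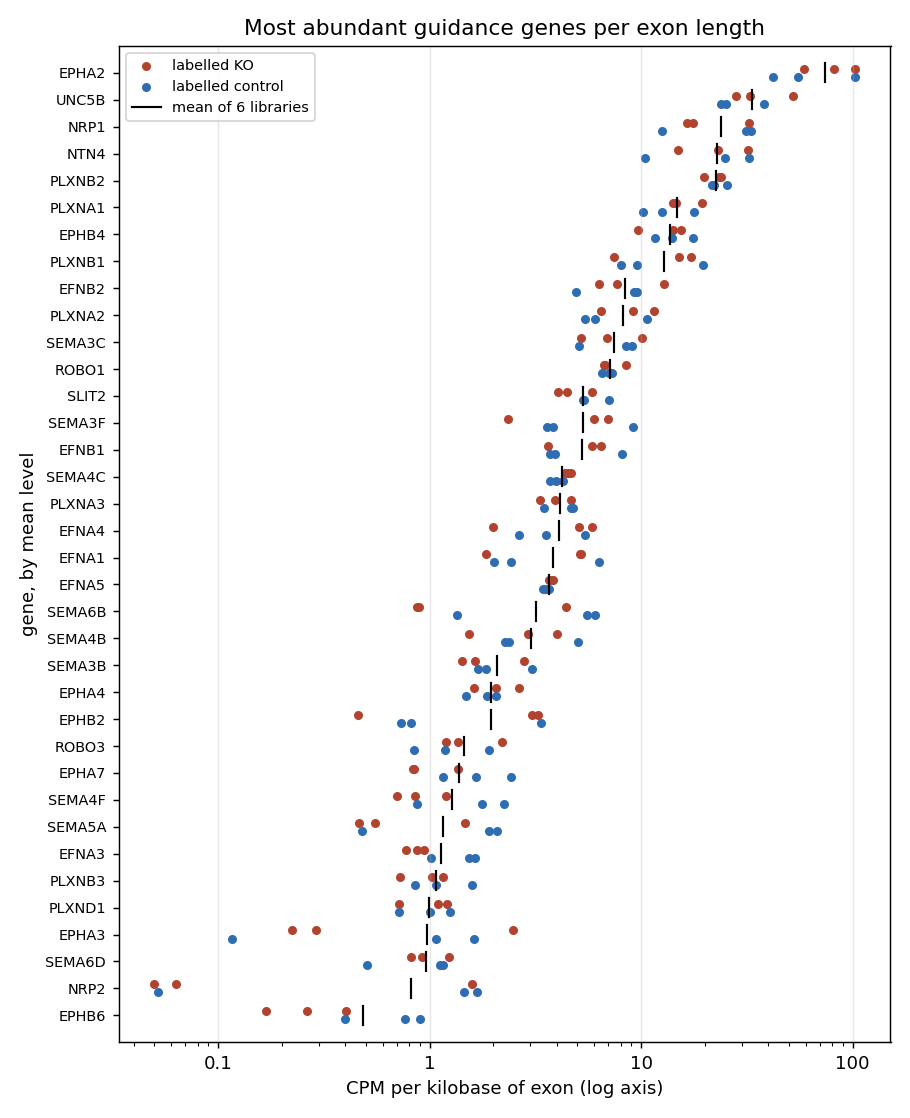
Level of the 36 most abundant guidance genes in CPM per kilobase of exon on a log axis, with 1 point per library (red, labelled KO, above blue, labelled control) and a black bar at the mean of the 6 libraries. EPHA2 stands at the top at 73.8 CPM per kb, and NRP2, EPHA3 and SEMA6B have points spread over a wide range in both labels.

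Of the 68 genes, 46 passed the low-count filter with all 6 libraries and 47 without both R2, the difference being the ephrin gene EFNB3. The 21 that passed neither had at most 23 expected counts in any library, and 6 of them (EFNA2, EPHA8, EPHB1, SEMA5B, UNC5A and UNC5D) had 0 in every library. The 21 also include netrins 1, 3 and 5, SLIT1, SLIT3, ROBO2, the GPI-anchored semaphorin SEMA7A and the plexin PLXNA4. SEMA7A was the most abundant of them, at 0.0531, 0.919 and 0.176 CPM in KO R1 to R3 and 0.390, 0.193 and 1.15 CPM in control R1 to R3.

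With all 6 libraries, no guidance gene differed between the labels beyond the spread of the libraries. edgeR's quasi-likelihood test called 0 of the 46 at an adjusted p under 0.05, and 0% of the 14613 genes tested. DESeq2 called 0 of the 35 to which it gave an adjusted p (1.02% of all genes) and limma-voom 0 of 46. EPHB6, described below, was given no adjusted p by DESeq2. At an unadjusted p under 0.05 there was 1 of 46, a lower one, where 3.49% of all genes were higher and 4.17% lower, 7.66% together. The median log2 fold change of KO over control was -0.01 over the 46 and 0.00 over all genes, and the median absolute value 0.23 and 0.22. Single genes ranged from -1.31 (EPHB6) to 1.04 (ROBO4).

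The 1 gene was EPHB6, an EPH receptor whose kinase domain lacks activity (GRCh38 chromosome 7, 142855061 to 142871094, plus strand). EPHB6 stood at 0.902, 2.14 and 1.41 CPM in KO R1 to R3 and at 4.82, 2.13 and 4.09 CPM in control R1 to R3, from 17 to 99 expected counts. The R2 libraries met in the middle, and the labels overlapped between those libraries alone. Its mean was 1.48 ± 0.624 CPM in KO and 3.68 ± 1.40 CPM in control (SD, n = 3 each), with log2 fold change -1.31 (SE 0.46, edgeR adjusted p = 0.635).

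In 4 of the 46 genes the labels did not overlap, against 13.6% of all genes tested, KO lying below control in 2 (6.98% of all) and above it in 2 (6.6%). EFNA3, a lipid-anchored ephrin, stood at 1.80, 1.47 and 1.67 CPM in the KO libraries and 1.95, 3.14 and 2.94 CPM in the control libraries (log2 fold change -0.70, SE 0.30, edgeR adjusted p = 0.648). SEMA3A, the founding repulsive semaphorin of vertebrates, stood at 0.212, 0.490 and 0.615 CPM in KO and 0.682, 1.21 and 0.699 CPM in control, from 4 to 25 expected counts. KO was below control in both. The differences the other way were small: SEMA4C stood at 28.6, 27.9 and 27.02 CPM in KO and 24.3, 22.9 and 26.3 CPM in control, and EFNA5 at 21.7, 21.9 and 20.9 CPM in KO and 20.3, 19.6 and 20.9 CPM in control. For SEMA3A, SEMA4C and EFNA5 edgeR's adjusted p ran from 0.683 to 0.867.

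Ordered by level instead of by label, the guidance genes mostly placed the libraries as DAPK3 RNA did. In 29 of the 46 genes (63.0%), KO R2, control R1 and control R3 were together above or together below the other 3 libraries, a share of 43.8% over all genes tested. They were above in 16 (21.2% of all genes) and below in 13 (22.6%). The 16 are both neuropilins, 7 semaphorins (SEMA3C, SEMA3D, SEMA4D, SEMA4F, SEMA5A, SEMA6B and SEMA6D), 3 EPH receptors (EPHA3, EPHA7 and EPHB6), EFNB2, SLIT2, ROBO1 and NTN4. The 13 are 4 EPH receptors (EPHA2, EPHA4, EPHB2 and EPHB4), 3 ephrins (EFNA1, EFNA4 and EFNB1), 3 plexins (PLXNA2, PLXNB1 and PLXND1) and 3 semaphorins (SEMA3F, SEMA4B and SEMA6A). These are counts of an order and carry no test.

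**Figure D2:**
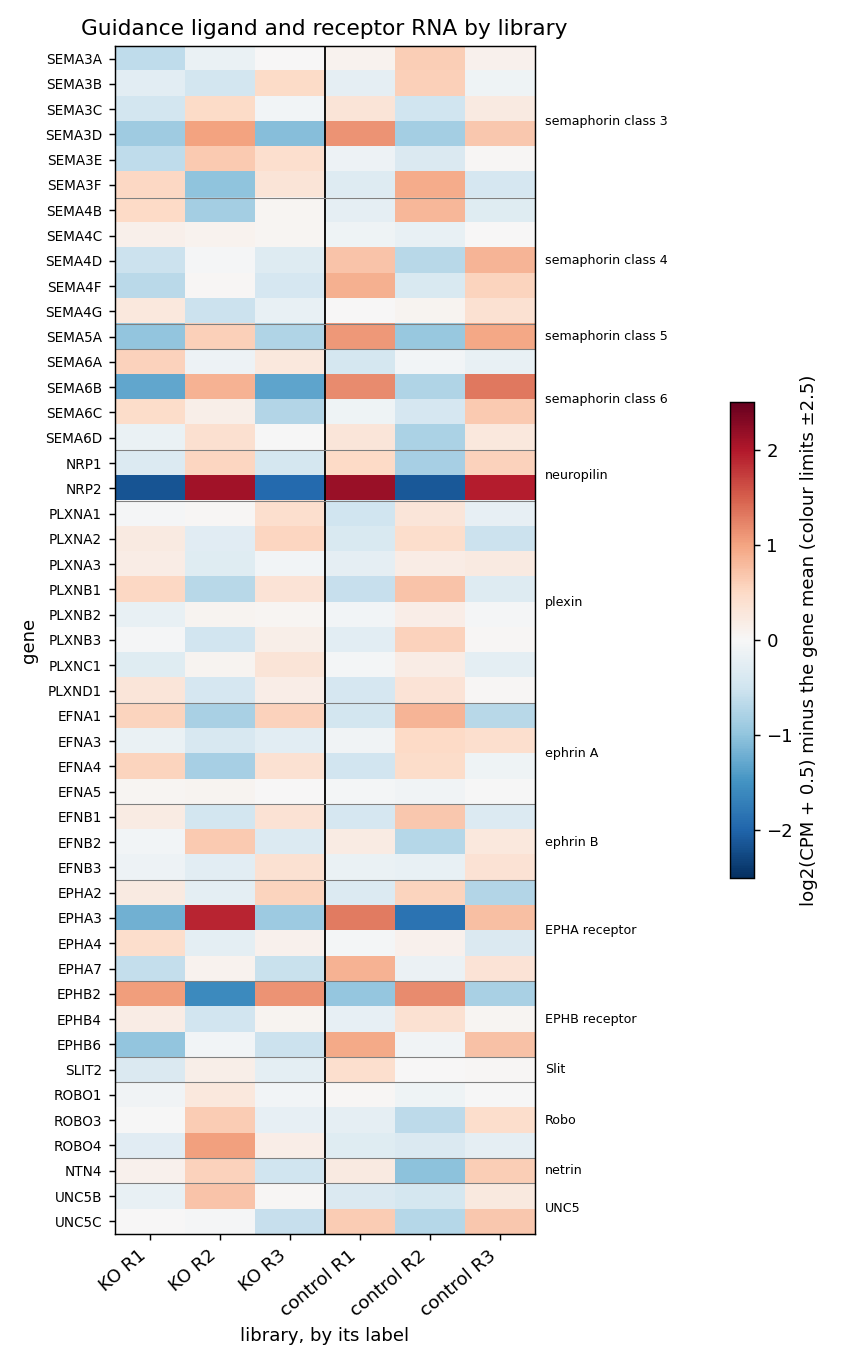
Level of the 47 guidance genes tested without both R2 libraries, as log2(CPM + 0.5) minus the mean of the gene, with genes in rows by family and libraries in columns (KO R1 to R3 left of the line, control R1 to R3 right of it). KO R2 shares its colours with control R1 and control R3 in NRP2, EPHA3, SEMA3D, SEMA5A and SEMA6B, and control R2 shares those of KO R1 and KO R3.

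Without both R2 libraries, semaphorins and their receptors, ephrins with EPH receptors, and the ligand SLIT2 held the calls, and no ROBO, netrin or UNC5 gene was called. edgeR called 7 of the 47 genes higher in KO R1 and R3 than in control R1 and R3 (12.2% of 14846 genes tested were called higher) and 12 lower (15.2% of all). Together 19 were called, 40.4% of those tested against 27.3% of all genes. Of the 47, 2 (4.26%) were called with a rise of at least 1 log2 unit, against 4.24% of all genes. Another 9 (19.1%) were called with a fall of at least 1 log2 unit, against 8.3% of all genes. The median log2 fold change was -0.05 over the 47 and -0.02 over all genes, and the median absolute value 0.57 and 0.38. The R2 libraries were left out for their DAPK3 level, so these p-values are no independent evidence for the labels. In bulk RNA, fewer cells of a kind and less RNA per cell cannot be told apart.

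The R2 libraries, which had no part in these calls, mostly lay with the other label. In 15 of the 19 called genes, control R2 was nearer on the log2 scale to the mean of KO R1 and R3 and KO R2 nearer to that of control R1 and R3. The share was 68.0% over all 4055 genes called. The exceptions were EPHB6, SEMA4D, SEMA4F and SLIT2.

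**Figure D3:**
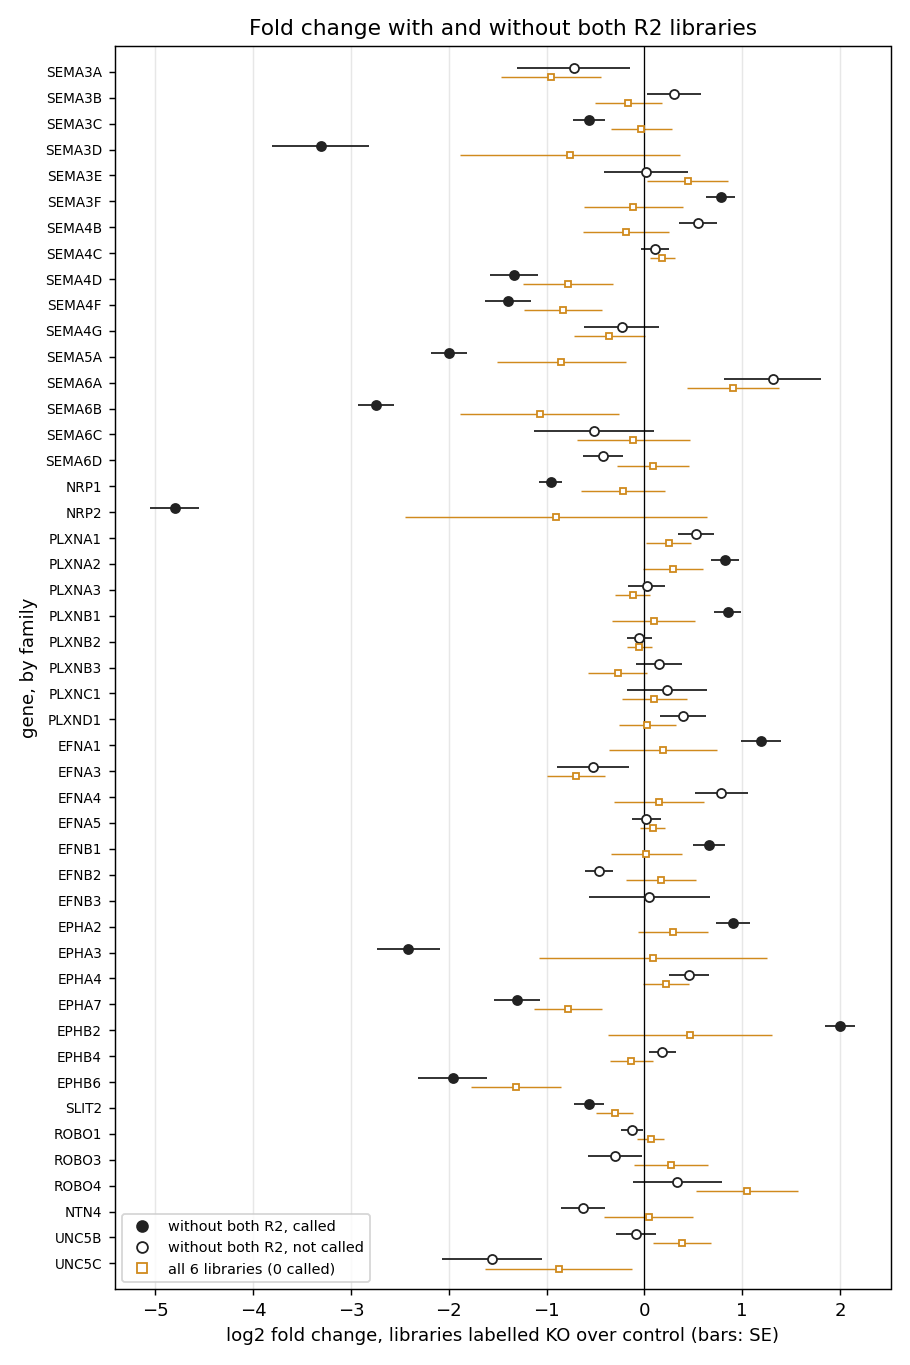
Log2 fold change of libraries labelled KO over control with its standard error for the 47 genes, by family, without both R2 libraries (circles, filled where called) and with all 6 libraries (orange squares, where tested). The filled circles reach from -4.80 for NRP2 to 1.999 for EPHB2, while no square is called and their bars are wide for NRP2, EPHA3 and SEMA3D.

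Both neuropilins were called lower without both R2 libraries, as were 15.2% of all genes. NRP2 (GRCh38 chromosome 2, 205681990 to 205798133, plus strand) stood at 0.690, 22.2 and 0.879 CPM in KO R1 to R3 and at 23.3, 0.725 and 20.3 CPM in control R1 to R3. Its low libraries held 13 to 20 expected counts each and its high ones 362 to 478, with nothing between. Without both R2, edgeR gave -4.80 on the log2 fold change scale (SE 0.25, adjusted p = 8.6e-05), and with all 6 libraries -0.90 (SE 1.54, adjusted p = 0.884). NRP1, which also serves VEGF-A signalling (chromosome 10, 33177492 to 33336262, minus strand), stood at 203, 373 and 189 CPM in KO and 362, 144 and 383 CPM in control (log2 fold change -0.96, SE 0.12, edgeR adjusted p = 0.0019 without both R2). Per length, NRP2 made up 0.281%, 4.70% and 0.383% of neuropilin RNA in the KO libraries and 5.06%, 0.414% and 4.21% in the control libraries, so NRP1 was the main neuropilin in all 6.

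Their secreted ligands moved both ways. SEMA3D fell and SEMA3F, a ligand with a preference for NRP2, rose. SEMA3D stood at 0.265, 2.33 and 0.176 CPM in KO and 2.58, 0.290 and 1.75 CPM in control (log2 fold change -3.31, SE 0.50, edgeR adjusted p = 0.0042 without both R2), on 4 to 6 expected counts in each low library. SEMA3F stood at 33.5, 11.3 and 29.04 CPM in KO and 18.4, 44.4 and 17.3 CPM in control, with log2 fold change 0.78 (SE 0.15, edgeR adjusted p = 0.0109). SEMA3C stood at 32.7, 63.4 and 43.1 CPM in KO and 57.0, 31.7 and 53.2 CPM in control. Its call (log2 fold change -0.57, SE 0.16, edgeR adjusted p = 0.0388) was lost when KO R1 (adjusted p = 0.163), control R1 (0.116) or control R3 (0.0603) was also left out. SEMA3C took 37.0%, 67.9% and 42.1% of class 3 RNA per length in the KO libraries and 59.3%, 28.4% and 57.9% in the control libraries, and SEMA3F took 49.2%, 15.8% and 36.8% in KO and 24.8%, 51.6% and 24.5% in control. SEMA3F therefore led in KO R1 and control R2, and SEMA3C in the other 4 libraries. The summed class 3 level itself lay between 14.1 and 16.3 CPM per kb in KO and between 14.7 and 17.9 CPM per kb in control.

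Membrane semaphorins that were called were all lower without both R2 libraries, where 15.2% of all genes were called lower and 12.2% higher. SEMA6B, a class 6 ligand of A-type plexins (chromosome 19, 4542593 to 4559808, minus strand), stood at 3.93, 19.4 and 3.87 CPM in KO and 24.4, 5.94 and 26.7 CPM in control, with log2 fold change -2.74 (SE 0.19, edgeR adjusted p = 2.1e-04). SEMA5A, a class 5 semaphorin with thrombospondin repeats, stood at 5.63, 17.8 and 6.68 CPM in KO and 25.1, 5.80 and 23.2 CPM in control (log2 fold change -1.998, SE 0.18, edgeR adjusted p = 6.5e-04). In both genes KO R2 was high with control R1 and R3, though below them.

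SEMA4D and SEMA4F also had KO R2, control R1 and control R3 above the other libraries, with KO R2 less high. SEMA4D, the ligand of PLXNB1, stood at 3.29, 4.90 and 3.91 CPM in KO and 8.43, 2.90 and 9.38 CPM in control (log2 fold change -1.33, SE 0.24, edgeR adjusted p = 0.0086). SEMA4F stood at 4.35, 7.47 and 5.32 CPM in KO and 14.0, 5.46 and 11.03 CPM in control (log2 fold change -1.40, SE 0.23, edgeR adjusted p = 0.0062). In these genes KO R2 was nearer to the other KO libraries than to control R1 and R3, as in EPHB6, while control R2 was low with the KO libraries. SEMA4B, SEMA4C, SEMA4G, SEMA6A, SEMA6C and SEMA6D were not called, with log2 fold changes from -0.51 (SEMA6C) to 1.31 (SEMA6A). SEMA6D, the most abundant of the uncalled class 6 genes, stood at 7.01, 10.6 and 7.86 CPM in KO and 9.89, 4.35 and 9.63 CPM in control. SEMA4B stood at 28.2, 10.7 and 20.6 CPM in KO and 16.7, 35.4 and 15.9 CPM in control, and was not called (log2 fold change 0.55, SE 0.19). SEMA4G and the 1 C-type plexin, PLXNC1, share exonic bases with the more abundant genes MRPL43 and CEP83 on the opposite strand, and the strand setting of the counts is not given, so their values are uncertain. EPHB4 shares 69 exonic bases with SLC12A9 on the opposite strand, and PLXNB3 shares 1432 with SRPK3 on the same strand.

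Plexins, the signalling receptors of semaphorins, varied less. PLXNB1 and PLXNA2 were called higher, as were 12.2% of all genes. The other 6 tested were not called, at -0.05 to 0.53 on the log2 fold change scale. PLXNB1 stood at 167, 72.1 and 147 CPM in KO and 77.8, 192 and 92.7 CPM in control (log2 fold change 0.85, SE 0.14, edgeR adjusted p = 0.0062), opposite in direction to its ligand SEMA4D. PLXNA2, a receptor of class 6 semaphorins, stood at 127, 89.1 and 159 CPM in KO and 83.2, 147 and 75.0 CPM in control (log2 fold change 0.82, SE 0.14, edgeR adjusted p = 0.0074). PLXNB2, the most abundant plexin per length, stood at 144, 173 and 169 CPM in KO and 157, 185 and 161 CPM in control (log2 fold change -0.05, SE 0.13). PLXNA1, second among plexins, stood at 154, 160 and 212 CPM in KO and 112, 195 and 137 CPM in control and was not called (log2 fold change 0.53, SE 0.19).

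EPH receptors were called in both directions, 2 higher and 3 lower of 7 tested without both R2 libraries. Over all genes, 12.2% were called higher and 15.2% lower. EPHB2 (chromosome 1, 22710839 to 22921500, plus strand) stood at 38.3, 5.76 and 40.6 CPM in KO and 9.16, 41.97 and 10.2 CPM in control. The 3 high libraries were between 38.3 and 41.97 CPM, and the low ones at or under 10.2 CPM, with KO R2 the lowest of all. Without both R2, edgeR gave 1.999 on the log2 fold change scale (SE 0.16, adjusted p = 3.6e-04), and with all 6 libraries 0.47 (SE 0.84, adjusted p = 0.890). EPHA2, a receptor abundant in epithelial and breast cancer cells, stood at 340, 244 and 429 CPM in KO and 228, 426 and 175 CPM in control (log2 fold change 0.90, SE 0.17, edgeR adjusted p = 0.0094 without both R2). EPHA2 made up 78.4%, 78.4% and 83.1% of EPH receptor RNA per length in the KO libraries and 74.0%, 80.4% and 67.9% in the control libraries, so it remained the main EPH receptor throughout.

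EPHA3, a receptor of A-type ephrins, fell. It stood at 1.49, 16.5 and 1.93 CPM in KO and 10.8, 0.773 and 7.19 CPM in control (log2 fold change -2.41, SE 0.32, edgeR adjusted p = 0.0026 without both R2). KO R2 was the highest of all libraries and control R2 the lowest, so that with all 6 the log2 fold change was 0.09 (SE 1.17). EPHA7 stood at 6.21, 10.2 and 6.33 CPM in KO and 18.1, 8.597 and 12.4 CPM in control (log2 fold change -1.31, SE 0.24, edgeR adjusted p = 0.0082). EPHB6, with the values given above, had log2 fold change -1.96 (SE 0.35, edgeR adjusted p = 0.0083) without both R2. EPHA4 and EPHB4 were not called. EPHA4 stood at 19.9, 12.2 and 15.6 CPM in KO and 14.1, 15.6 and 11.2 CPM in control, and EPHB4, the receptor of EFNB2, at 99.7, 62.5 and 91.3 CPM in KO and 75.3, 113 and 89.7 CPM in control (log2 fold change 0.18, SE 0.14).

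**Figure D4:**
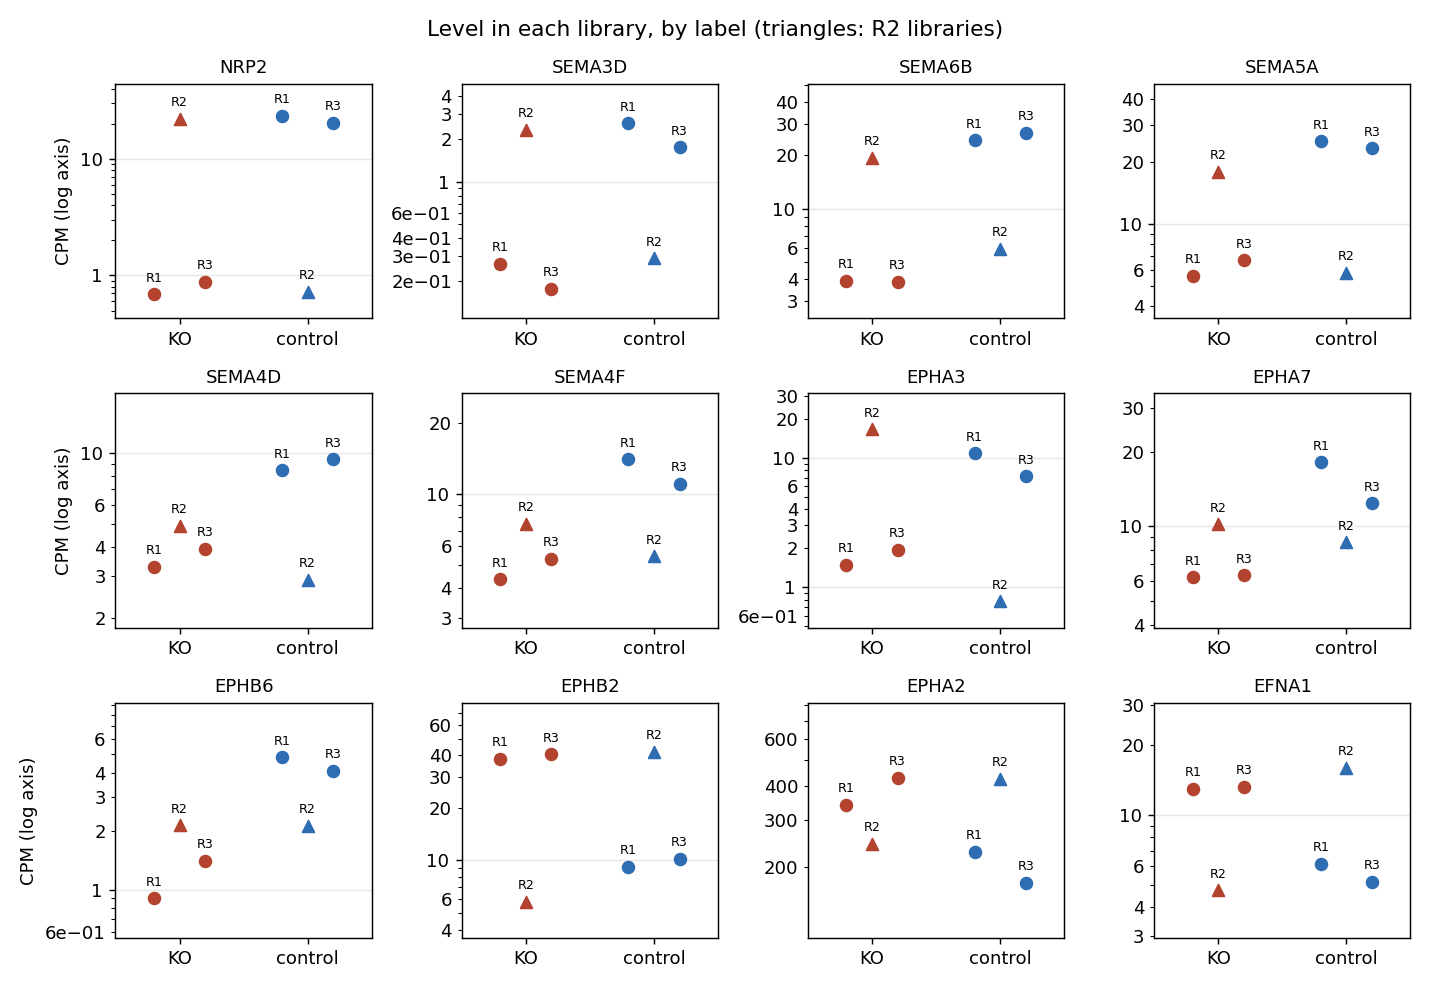
CPM in each library on a log axis for 12 guidance genes, KO left (red) and control right (blue), with replicate numbers and triangles for the R2 libraries. In NRP2, SEMA3D, SEMA6B, SEMA5A and EPHA3 the KO R2 triangle lies high with control R1 and R3 and the control R2 triangle low with KO R1 and R3, in EPHB2 and EFNA1 the reverse holds, and in EPHB6 the triangles meet at 2.14 and 2.13 CPM.

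Among ephrins, EFNA1 and EFNB1 were called higher and none lower, where 12.2% of all genes were called higher and 15.2% lower. EFNA1, the ligand of EPHA2, stood at 13.0, 4.72 and 13.3 CPM in KO and 6.14, 15.99 and 5.14 CPM in control (log2 fold change 1.19, SE 0.21, edgeR adjusted p = 0.0071 without both R2), so EFNA1 and EPHA2 moved the same way. EFNB1, a B-type ephrin that binds EPHB2, stood at 19.3, 12.01 and 21.4 CPM in KO and 12.3, 26.8 and 13.0 CPM in control (log2 fold change 0.66, SE 0.17, edgeR adjusted p = 0.0261). EFNB1's call was lost when KO R3 (adjusted p = 0.0990), control R1 (0.0899) or control R3 (0.0539) was also left out. EFNB2, the ligand of EPHB4, stood at 38.4, 64.1 and 31.8 CPM in KO and 46.4, 24.6 and 48.3 CPM in control and was not called (log2 fold change -0.46, SE 0.15, edgeR adjusted p = 0.0538). EFNB2 took 26.1%, 51.2% and 22.7% of ephrin RNA per length in the KO libraries and 40.7%, 16.4% and 39.2% in the control libraries. EFNB1 was above it in KO R3 (23.2%) and in control R2 (27.1%), where EFNA1 (21.1%) and EFNA4 (18.2%) were above it too. EFNA5 was nearly level across the libraries.

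Some of these genes are neighbours. EFNA4, EFNA3 and EFNA1 lie in that order on the plus strand of chromosome 1 between 155063731 and 155134857. EFNA1 and EFNA4 had KO R2, control R1 and control R3 as their lowest libraries, EFNA4 standing at 7.38, 2.51 and 6.46 CPM in KO and 3.36, 6.86 and 4.49 CPM in control. In EFNA3, between them, the labels did not overlap, as given above, though KO R1 (1.80 CPM) lay close to control R1 (1.95 CPM). Neither EFNA3 nor EFNA4 was called without both R2 libraries. SEMA3C, SEMA3E, SEMA3A and SEMA3D lie on the minus strand of chromosome 7 between 80742538 and 85186855. SEMA3C and SEMA3D, the outer pair, were called lower without both R2 libraries, while SEMA3E, at 1.80, 5.08 and 4.26 CPM in KO and 2.78, 2.27 and 3.14 CPM in control, and SEMA3A were not called. SEMA3F and SEMA3B lie on chromosome 3 between 50155045 and 50277546. SEMA3B stood at 9.45, 8.21 and 16.2 CPM in KO and 9.74, 17.6 and 10.6 CPM in control and was not called (log2 fold change 0.31).

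The SLIT, ROBO, netrin and UNC5 systems gave 1 call among 7 genes tested without both R2, where 27.3% of all genes were called. SLIT2, the main SLIT, stood at 39.5, 56.7 and 43.2 CPM in KO and 68.1, 51.8 and 52.0 CPM in control. Its call without both R2 (log2 fold change -0.57, SE 0.16, edgeR adjusted p = 0.0355) was lost without KO R1 (adjusted p = 0.0719) or control R1 (adjusted p = 0.202). ROBO1, its receptor, stood at 72.4, 92.4 and 73.2 CPM in KO and 79.2, 71.4 and 76.8 CPM in control (log2 fold change -0.13, SE 0.11). ROBO3 stood at 9.61, 15.4 and 8.39 CPM in KO and 8.28, 5.94 and 13.4 CPM in control. NTN4 stood at 96.0, 133 and 62.6 CPM in KO and 103, 43.6 and 136 CPM in control (log2 fold change -0.63, SE 0.23, edgeR adjusted p = 0.0811). UNC5B stood at 192, 359 and 224 CPM in KO and 172, 163 and 260 CPM in control (log2 fold change -0.08, SE 0.21), KO R2 being the highest library. UNC5C stood at 0.637, 0.613 and 0.264 CPM in KO and 1.27, 0.193 and 1.3 CPM in control and was not called (edgeR adjusted p = 0.0624). The second SLIT and netrin by level held at most 6 expected counts in a library: SLIT1 stood at 0.0531, 0.0613 and 0 CPM in KO and 0.0974, 0 and 0.299 CPM in control, and NTN1 at 0.0531, 0 and 0 CPM in KO and 0, 0.0483 and 0.15 CPM in control.

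A list of 63 other genes tied to guidance signalling also held calls in both directions. It holds ligands, receptors and intracellular partners that are not among the 68 genes. With all 6 libraries, edgeR called 0 of the 48 tested. At an unadjusted p under 0.05 there were 2, both higher in KO, where 3.49% of all genes were higher and 7.66% passed in either direction. These were ENAH, an actin regulator, at 282, 328 and 302 CPM in KO and 223, 228 and 233 CPM in control, and FLRT1, an UNC5 and latrophilin ligand, at 5.25, 3.86 and 3.91 CPM in KO and 1.66, 2.46 and 2.55 CPM in control. The labels did not overlap in either gene, as in 6.6% of all genes with KO above control. Without both R2 libraries, 6 of 49 were called higher and 15 lower, against 12.2% and 15.2% of all genes, and the median log2 fold change was -0.23, against -0.02 over all genes.

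The called genes with the largest rise were SRGAP3 and NEO1. NEO1, the netrin and RGM receptor neogenin, stood at 113, 14.3 and 123 CPM in KO and 19.2, 129 and 18.9 CPM in control (log2 fold change 2.60, SE 0.13). SRGAP3, of the SLIT-ROBO GTPase-activating family, stood at 12.8, 1.04 and 14.3 CPM in KO and 1.07, 21.1 and 2.74 CPM in control (log2 fold change 2.79, SE 0.40). ABLIM1, an actin-binding LIM protein, stood at 108, 48.5 and 117 CPM in KO and 51.0, 113 and 43.4 CPM in control (log2 fold change 1.23, SE 0.13), and the cofilin kinase LIMK2 at 45.2, 39.4 and 64.98 CPM in KO and 33.6, 66.8 and 31.7 CPM in control (log2 fold change 0.73, SE 0.19). The largest falls were those of CXCL12, LPAR1, TIAM1 and VAV3. CXCL12, a chemokine that also guides axons, stood at 0.0531, 2.45 and 0.132 CPM in KO and 11.5, 0.580 and 8.63 CPM in control, and LPAR1, a lysophosphatidic acid receptor, at 0.0531, 2.27 and 0.0439 CPM in KO and 2.83, 0.0483 and 3.84 CPM in control. TIAM1, a RAC exchange factor, stood at 0.0531, 1.35 and 0.0879 CPM in KO and 1.85, 0.242 and 0.898 CPM in control. No fold change is given for these 3, since KO R1 and R3 held 1 to 3 expected counts each. VAV3, an exchange factor that acts below EPH receptors, stood at 2.65, 10.1 and 1.54 CPM in KO and 20.9, 3.14 and 14.02 CPM in control (log2 fold change -3.10, SE 0.33). In NEO1, SRGAP3, LPAR1 and TIAM1 KO R2 lay on the side of control R1 and R3, while CXCL12 in KO R2 lay between the extremes.

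Markers of cells in which guidance genes are often studied were low or moved with the same libraries. The 10 neuronal markers summed to 20.5, 167 and 26.7 CPM in KO R1 to R3 and to 153, 24.4 and 127 CPM in control R1 to R3, and 3 of the 4 tested were called lower without both R2 libraries. MAP2 made up most of that sum in every library except KO R1 and control R2, and stood at 7.96, 135 and 14.98 CPM in KO and 100.5, 8.74 and 80.4 CPM in control. STMN2, NEFL and NEFM were at 0 in every library, and ELAVL3, ELAVL4 and RBFOX3 under 1 CPM. The 8 endothelial markers summed to between 6.33 and 13.3 CPM in KO and between 10.1 and 19.9 CPM in control, with 2 of 3 tested called lower, CDH5 at 0, and CLDN5, ESAM, TEK and VWF under 1 CPM. The 6 blood markers summed to between 0.923 and 5.15 CPM in KO and between 1.11 and 4.94 CPM in control, with 1 of 2 called lower. The 6 luminal breast markers summed to between 6.32 and 11.3 CPM in KO and between 5.79 and 7.21 CPM in control, with 0 of 2 called, PGR at 0, and EPCAM, ESR1 and KRT19 under 1 CPM. The 4 basal breast markers summed to 162, 60.9 and 408 CPM in KO and 53.5, 277 and 40 CPM in control, and 4 of 4 were called higher. The 5 markers of mesenchymal breast cancer lines summed to 2030, 3960 and 2750 CPM in KO and 5080, 2860 and 3950 CPM in control, and 4 of 5 were called lower. Beside these calls, 12.2% of all genes were called higher and 15.2% lower without both R2 libraries. The part of these markers in the guidance gene results was not tested.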

How the data were processed

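RNA was measured in 6 SUM159 libraries, 3 labelled DAPK3 KO and 3 labelled control. The values the authors deposited are expected counts for each gene (RSEM), per the file headers, and 9.42% to 10.6% of them were not whole. RSEM, Bowtie2, edgeR and GRCh38 are named in the submitters' processing notes. Tool versions, annotation and strandedness of the counting: not given in the sources used here. Expected counts were rounded. CPM divides the rounded count by the library total times its TMM factor (0.991 to 1.009). Labels were compared by the quasi-likelihood test of edgeR 4.0.16 in R 4.3.3, with filterByExpr, TMM and Benjamini-Hochberg adjustment over all genes tested, called under 0.05, with all 6 libraries and without both R2. Each SE is the absolute fold change over the root of F. Coordinates and exon lengths are from GENCODE release 29, in which all 68 genes were matched by identifier. The authors may have counted on another release. DESeq2 1.42.0 and limma 3.58.1 were alternatives. The edgeR step was also run on simulated counts, which lacked the split of libraries across the labels seen here.

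Genes, lists, tests and the omission of the R2 libraries were chosen with earlier results of these data known. Named with values in every library were DAPK3, the 2 most abundant genes of each family, genes called with a log2 fold change of at least 1 and a mean of at least 1 CPM, and those at an unadjusted p under 0.05 with all 6 libraries, and, of the list of 63, the 4 called with the largest change each way. Others named were chosen after their values were seen. No library pair agreed within sampling noise, with a chi-square per degree of freedom of 12.9 or more.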

Additional observations from a re-analysis of the deposited data

How the results depend on the processing

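With all 6 libraries, 0 guidance genes were called under RLE or library-total scaling, no filter, a filter of 1 CPM, DESeq2, limma-voom, the replicate block, an adjusted p under 0.01 or with any library left out (0 to 0 genes), and 19 without both R2. Over all genes, DESeq2 called 114, 4055 were called without both R2, and each of the other settings gave 0. The median log2 fold change of the guidance genes ran from -0.1473 to -0.009504 with 1 library left out, and was 0.012 with the filter of 1 CPM.

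Without both R2, 19 guidance genes were called, against 16 to 21 under the same settings other than the threshold, and 15 at an adjusted p under 0.01. Over all genes that threshold called 1710. Leaving out 1 more library gave 17 to 21 guidance genes and 2543 (without control R1) to 3700 of all genes, in a fit which takes a lone library to vary as the pair does. The median log2 fold change ran from -0.18 to 0.10, above 0 without control R3. SEMA3C, SLIT2 and EFNB1 lost their calls with the replicate block (edgeR adjusted p = 0.0665, 0.0754 and 0.0769) and with some libraries left out, as given above, and SEMA3C and SLIT2 without a filter (0.0824 and 0.0841). The other 16 kept direction and call under the other scalings, filters, tools, blocks and omissions named. At an adjusted p under 0.01 SEMA3F was not called either.

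The replicate numbers are not shown to pair the libraries: deviations of same-numbered libraries from their group means correlated at -0.65, -0.85 and -0.70 for R1, R2 and R3, and at -0.31 without both R2. With the replicate block 0 guidance genes were called with all 6 libraries and 16 without both R2, where 2705 of all genes were called. Pairs crossed after seeing the data gave 26 and 6149. The count of 29 ordered genes was the same under RLE and library-total scaling. On the longest annotated transcript 35 genes instead of 31 reached 1 CPM per kb, and NRP1 stood above UNC5B. SEMA3A and SEMA7A had at most 25 counts in any library, where a small difference was not detectable.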
